A study of Mus musculus with 2 samples.

Results

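The IGF1 axis was followed through 8 genes, namely the growth factor gene Igf1, its receptor gene Igf1r and the binding protein genes Igfbp2, Igfbp3, Igfbp4, Igfbp5, Igfbp6 and Igfbp7. Members were every probe that the array's own gene name column assigns to these symbols, 18 of the 41174 distinct probes, and 8 of 19698 genes that could be named. NIH3T3, a line of mouse embryonic fibroblasts, carried the plasmid pcDNA3.1 either empty or with MARVELD1, which encodes a protein of the MARVEL domain family. Both lines were selected with G418 and grown in medium with 10% fetal bovine serum, so drug selection and serum were shared by both groups. Whether each line is a clone or a pool is not given in the sources used here. Total RNA of each line was labelled with Cy3 and read on 1 single-colour Agilent whole-genome array, and the comparison asks how MARVELD1 bears on expression in these cells.

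Each group is a single array, which leaves no replicate to test against, and errors below are technical. They are the scanner file's own error of a spot, printed as ± after an intensity, and the same errors carried into a log2 difference. Where named, an error from repeated spots of like intensity is given beside the file error. Intensities are background-subtracted brightness in arbitrary units. Differences are on the log2 scale after each array was divided by its 75th percentile, as the array labelled MARVELD1 minus the empty vector array, and were read against a limit of 2-fold.

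IGF1 is a secreted peptide that activates the IGF1 receptor, a tyrosine kinase, which signals through IRS and SHC adaptors to the PI3K, AKT and MAPK pathways and supports growth and survival of fibroblasts. IGF binding proteins are secreted carriers that hold IGFs away from the receptor or bring them close to it, and proteases such as PAPP-A release the ligand by cutting them. Serum itself brings IGFs and binding proteins into the culture, and an RNA array does not read these.

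The probes are oligonucleotides of 60 bases, and those of Igf1, Igf1r, Igfbp4 and Igfbp5 on which the results turn are shown 5′ to 3′ as the array's files give them. The first pair is printed whole. Among the 13 of the 18 probes above background, only these have exactly 1 forward frame free of stop triplets and TGT or TGC triplets, the codons of cysteine, within it, and capitals mark those triplets. IGF1 and the binding proteins are held in shape by disulfide bonds between cysteines. Of the others the first 30 bases are printed, with no capitals. No annotation of build mm9 was used, so exon, intron or UTR is not stated for any probe.
Igf1 A_52_P536434: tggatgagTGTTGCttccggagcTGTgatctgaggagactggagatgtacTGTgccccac
Igfbp4 A_51_P398971: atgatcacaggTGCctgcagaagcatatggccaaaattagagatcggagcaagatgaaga
Igf1 A_51_P147942: cgcaggatcctttgctgcttgagcaacctg
Igf1r A_51_P318365: caacacttaatagcaacaggacactcgaga
Igf1r A_52_P634111: ctaggacttcttcatgggtctctcagttct
Igf1r A_51_P474538: gtagtcgttgacgaagctctggtttacaag
Igfbp4 A_52_P257502: gagaagagaaacctcattcttggagtgaga
Igfbp5 A_51_P204153: aatagaattttccttggtgtctcccatcta
Igfbp5 A_52_P281702: cacatcacatattactgtagctctctatag
The Igf1 probe A_52_P536434 holds 4 cysteine triplets in its open frame and the Igfbp4 probe A_51_P398971 holds 1. No member probe shared a run longer than 15 bases with a probe of another gene.

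The arrays lay on 1 slide and were read in 1 scan. Of their spots 68.6% and 68.9% were well above background, and the lowest intensity of a well-measured probe was 36.5 (empty vector) and 36.0 (MARVELD1). The check of the label went the other way: the brighter Marveld1 probe read 8725 on the empty vector array and 6293 where MARVELD1 was added, a log2 difference of -0.34, and the dimmer one gave -0.42. Whether these probes read the plasmid's insert is not known, so every direction below rests on the label. The median difference of all 16532 genes with a probe above background was 0.19, and it was 0.082 with scaling to the array median. Among 12 fibroblast markers 11 were above background on at least 1 array, with Col1a1 at 140084 and 102374 and Vim at 107829 and 114179. By the brightest probe of each gene, 3 of these 11 fibroblast markers were lower past 2-fold, against 3.53% of all genes. None was higher, against 5.39%. The 3 were Pdgfrb at -2.10, Col3a1 at -1.56 and Fn1 at -1.12. Other probes gave -0.10 for Col3a1 and -2.47 and -0.08 for Fn1. Of the 11 markers 4 lay above 0 and 7 below. The list's median was -0.54. Dimmer probes of Col1a1, at -1.60, and Thy1, at -1.61, were past 2-fold as well. Of 6 epithelial markers Epcam, Cdh1, Krt19 and Cldn4 were below background on both arrays, Krt8 read 219 and 211, with its other probe at 1.47, and Krt18 read 19.4 and 78.7, at least 2.35-fold higher. Of 5 adipocyte markers Adipoq, Lep and Cfd were below background and Fabp4 read 6234 and 1505, a log2 difference of -1.92. The fifth, Plin1, read 186 and 187, or 0.14. All 5 endothelial, all 6 myeloid and 4 of 5 skeletal muscle markers were above background on at least 1 array. None passed 2-fold by the brightest probe, while other probes gave -1.74 for Cdh5 and 1.33 for Csf1r. Summed intensities of these lists were 1869 and 1391, 1572 and 1459, and 1073 and 1369. These markers' part in the values below was not tested.

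Most of the 8 genes differed by less than 2-fold. By the brightest probe of each gene, 0 of the 7 genes with a probe above background passed 2-fold, against 8.92% of all genes tested (5.39% higher and 3.53% lower). By single probes, 13 of the 18 were above background on at least 1 array, and of these 1 was at least 2-fold higher and 2 were lower, against 5.88% and 4.62% of all 29535 probes tested. The 3 that passed were an Igfbp5 probe on the higher side and an Igfbp4 and an Igf1 probe on the lower side. In each of these genes another probe differed by less than 2-fold. The median of the 13 was -0.14, with 4 above and 9 below 0, where all probes had a median of 0.15 with 18150 above and 11309 below. Probes of 1 gene share their RNA and are not independent.

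**Figure D1:**
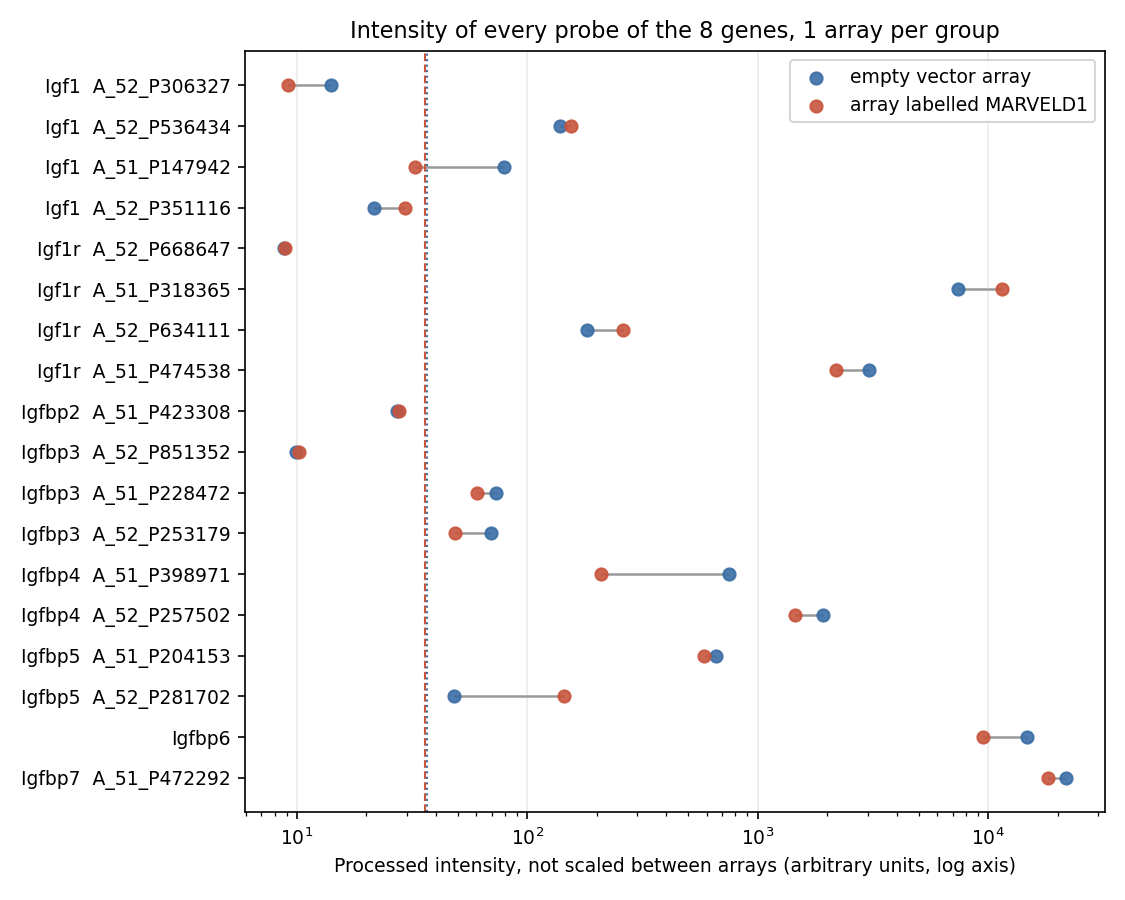
Processed intensity (log axis, arbitrary units, not scaled between arrays) of all 18 probes on the empty vector array and the array labelled MARVELD1, 1 array each, with each gene's probes in 5′ to 3′ order. The dotted and dashed lines mark the lowest well-measured intensity, 36.5 and 36.0, and 5 probes lie below it on both arrays.

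Igf1, the ligand gene, had only 1 probe well above background on both arrays, and its probes did not give 1 direction. All 4 probes lie on mouse chromosome 10 in build mm9, on the plus strand. The probe A_52_P536434 (87376418 to 87376477) read 138 ± 16.4 for the empty vector and 155 ± 17.9 for MARVELD1. The log2 difference was 0.30 with a file error of 0.24, and 0.11 above the median of all genes. That is a difference of about the size of the file error, and smaller than the error of 0.40 from repeated spots of like intensity.

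The 10-spot Igf1 probe A_51_P147942 (87393516 to 87393575) was lower in the MARVELD1 line. Its 10 spots for the empty vector lay between 67.0 and 87.2, with a median of 78.2, and all 10 were well above background. On the array labelled MARVELD1 the 10 spots read from 21.7 to 44.5 with a median of 35.2, and 1 was well above background. The spots of both arrays did not overlap, since the lowest on the empty vector array was above the highest on the other. Spots of 1 hybridisation repeat the scan and not the cells. Feature Extraction flags 2 and 1 of these spots as outliers, and they were left out, which leaves 8 spots well above background against 0 of 9. The SD of the used spots was 0.10 and 0.26 in log2 units. Because the dim side is only a bound, the probe was at least 2.01-fold lower, a log2 bound of -1.01.

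That Igf1 bound depends on how the spots are treated. It was -0.97 with the outlier spots kept and -0.56 after normexp background correction, both short of 2-fold. In the authors' deposited table the log2 ratio of the probe's values is -0.82. Its value for the array labelled MARVELD1, multiplied back by that array's factor, is 44.5, which equals the 1 spot that was both flagged as an outlier and well above background. The value for the empty vector array is 79.2, which equals the mean of the 8 used spots. The remaining Igf1 probes, A_52_P306327 (87325382 to 87325441) at 14.1 and 9.10 and A_52_P351116 (87396567 to 87396626) at 21.5 and 29.4, were below background on both arrays, so no fold is given.

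**Figure D2:**
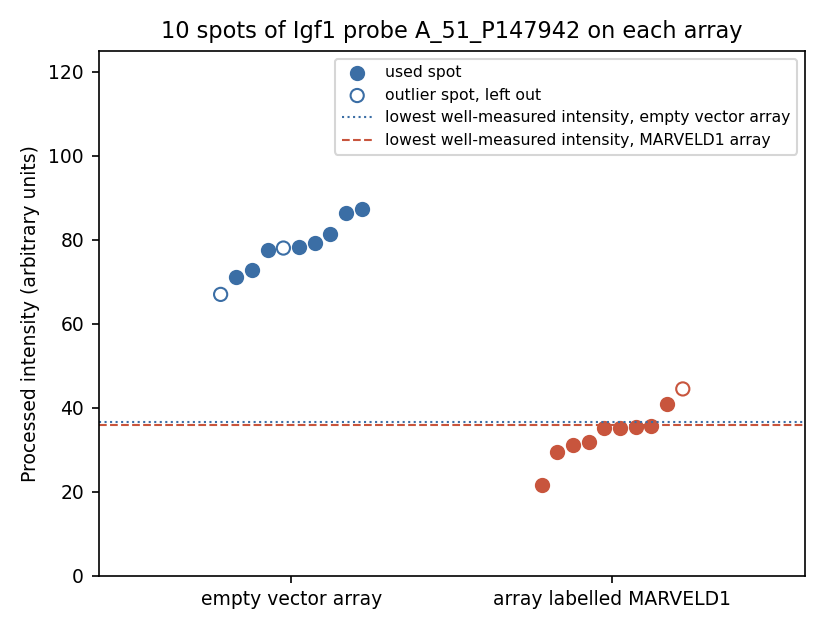
Processed intensity (linear axis from 0, arbitrary units) of each of the 10 spots of Igf1 probe A_51_P147942 on both arrays, sorted by value, with open circles for outlier spots. Spots of the empty vector array read 67.0 to 87.2 and those of the array labelled MARVELD1 21.7 to 44.5, around the lowest well-measured intensity of 36.0.

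Igf1r, which encodes the receptor, was bright on both arrays, and its 3 measured probes split. They lie on mm9 chromosome 7, plus strand, and follow in 5′ to 3′ order. Probe A_51_P318365 (75371556 to 75371615) read 7397 ± 740 for the empty vector and 11427 ± 1143 for MARVELD1. It was 1.69-fold higher on the array labelled MARVELD1, a log2 difference of 0.75 with a file error of 0.20. Probe A_52_P634111 (75372500 to 75372559), which starts 944 bases further on, read 181 ± 20.7 and 260 ± 27.7, or 0.65 with an error of 0.23. These neighbouring probes agree within the spot error.

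Probe A_51_P474538 (75376998 to 75377057), a further 4498 bases downstream, read 3047 ± 305 and 2179 ± 218. It was lower, 1.28-fold, with a log2 difference of -0.36 and an error of 0.20. The gap of 1.11 between the highest and lowest Igf1r probe is larger than the spot errors. Among 5486 genes with several measured probes, 16.3% had a gap at least that large and the median gap was 0.49. A gap of 1 or more, as in Igf1r, Igfbp4 and Igfbp5 but not Igfbp3, occurred in 20.2% of those genes. Probes of opposite sign, as in Igf1r and Igfbp5, occurred in 45.9%. The 2 positive differences ranged from 0.44 to 0.76 and from 0.51 to 0.66 over 7 other ways of processing, and the negative one from -0.53 to -0.35. The fourth probe, A_52_P668647 (75332515 to 75332574), was below background at 8.82 and 8.86.

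Igfbp6 and Igfbp7 had the highest intensities of the binding protein probes, and both were somewhat lower on the array labelled MARVELD1. IGFBP6 prefers IGF2 to IGF1 as a ligand, and IGFBP7 binds IGFs weakly. The single Igfbp6 probe read 14762 ± 1476 and 9471 ± 947. It was 1.43-fold lower, a log2 difference of -0.51 with a file error of 0.20, or -0.70 relative to the median of all genes. Over 7 other ways of processing it lay between -0.79 and -0.50. The difference is larger than the file error and stays under 2-fold in all of them.

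The Igfbp7 probe A_51_P472292 (chromosome 5, minus strand, 77778355 to 77778414) read 21695 ± 2170 and 18126 ± 1813. Its difference of -0.13 is smaller than the file error of 0.20. Relative to the median of all genes the value was -0.32, which is larger than that error. With quantile normalization the difference itself was -0.38, with loess -0.43 and with normexp -0.48. The size of the Igfbp7 difference therefore changes with the processing, as did those of Igfbp6 and Igf1r A_51_P318365. The cause was not tested.

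Igfbp4, whose product is an inhibitory carrier of IGFs and a substrate of PAPP-A, held the probe with the largest difference on the lower side of the 13, though not its brightest probe. Probe A_51_P398971 (mm9 chromosome 11, plus strand, 98909591 to 98909650), printed above, read 747 ± 75.1 for the empty vector and 208 ± 22.4 for MARVELD1. It was 3.29-fold lower, a log2 difference of -1.72 with a file error of 0.21, and between -1.83 and -1.50 over 7 other ways of processing. This is well beyond the file error and the error of 0.40 from repeated spots of like intensity, and past 2-fold under all 7.

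The brighter Igfbp4 probe did not show that size. A_52_P257502 (98913334 to 98913393), 3743 bases downstream, read 1926 ± 193 and 1455 ± 146, a 1.21-fold lower value. Its log2 difference was -0.28 with an error of 0.20. Both probes lie below 0, and they differ by 1.44, a gap that 8.59% of genes with several measured probes reach.

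Igfbp5, whose product binds extracellular matrix as well as IGFs, had probes that differed as well. They lie on mm9 chromosome 1, minus strand. The 5′ probe A_51_P204153 (72907366 to 72907425) read 659 ± 66.8 and 581 ± 59.0, a difference of -0.05 with an error of 0.21, and 0.06 after normexp. The 3′ probe A_52_P281702 (72904829 to 72904888) read 48.1 ± 9.83 and 143 ± 16.8, which is 3.26-fold higher on the array labelled MARVELD1. The first probe did not differ beyond its error and the second was the only 1 of the 13 past 2-fold higher.

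The higher value of that Igfbp5 probe starts close to the detection limit. Before background subtraction the spot had a mean brightness of 113 over a local background of 41.5 for the empty vector, and 213 over 36.0 for MARVELD1. The log2 difference was 1.70 with a file error of 0.34 and an error of 0.57 from repeated spots of like intensity. It was 0.91 after normexp with its offset of 50, which is short of 2-fold. The gap of 1.76 between the Igfbp5 probes is reached by 4.59% of genes with several measured probes.

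Igfbp3, the main carrier of IGFs in blood, was measured at low intensity on both arrays. Probe A_51_P228472 (mm9 chromosome 11, minus strand, 7108469 to 7109478), whose 60 bases span 1010 bases of the genome, read 72.8 ± 10.6 and 60.6 ± 10.2. Probe A_52_P253179 (7106594 to 7106653) read 69.3 ± 10.2 and 48.6 ± 9.38. Their log2 differences of -0.14 and -0.38 have file errors of 0.32 and 0.35, and the probes differed by 0.25. The first difference is smaller than its file error and the second is about as large as its file error. Both are smaller than the error of 0.65 from repeated spots of like intensity. The third probe, A_52_P851352 (7111815 to 7111874), was below background at 9.87 and 10.2.

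Igfbp2 was not detected on either array. Its only probe, A_51_P423308 (mm9 chromosome 1, plus strand, 72898677 to 72898736), read 27.2 ± 9.46 and 27.7 ± 9.52, below the lowest well-measured intensity. Igfbp2 and Igfbp5 are neighbours on chromosome 1, with 6092 bases between their nearest probes. Igfbp1 and Igfbp3 are neighbours on chromosome 11, with 4092 bases between theirs, and the Igfbp1 probe was also below background, at 27.6 and 11.1. In each neighbouring pair 1 gene was above background and the other was not.

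**Figure D3:**
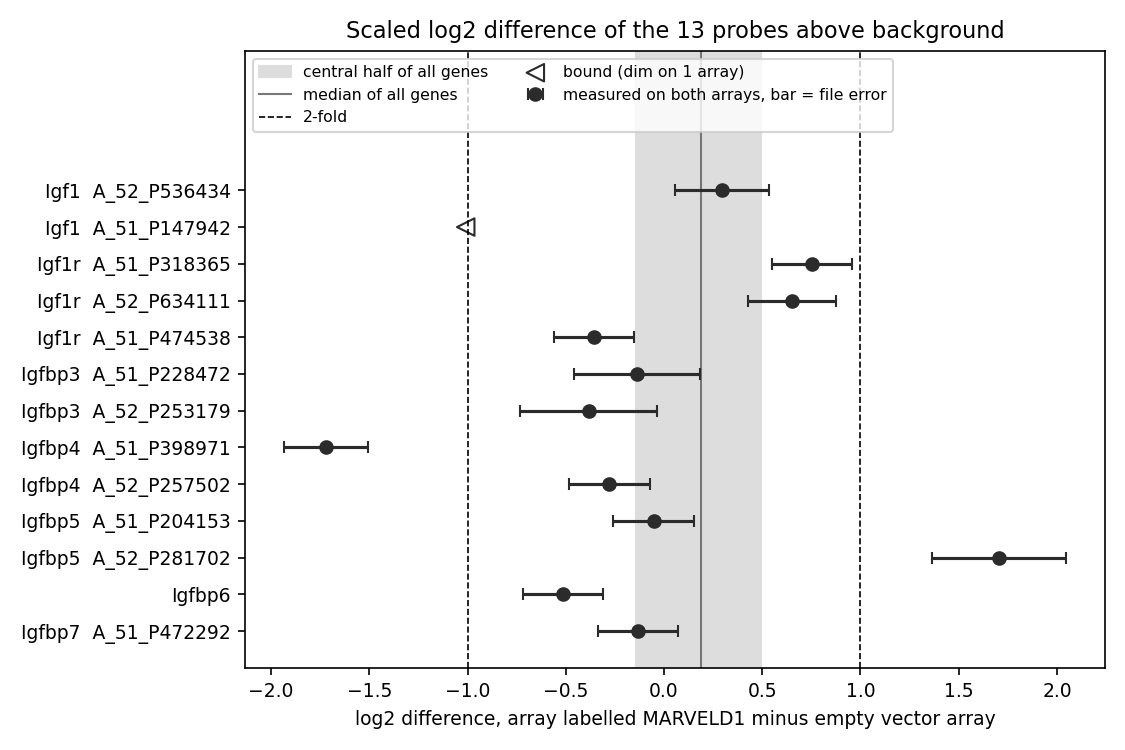
Scaled log2 difference (array labelled MARVELD1 minus empty vector array) of the 13 probes above background on at least 1 array, with bars for the scanner file's spot error and an open triangle for the Igf1 bound of -1.01. The Igfbp4 probe at -1.72 and the Igfbp5 probe at 1.70 lie past the dashed 2-fold lines, and the grey band spans the quartiles of all genes, from -0.14 to 0.49.

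Several features were shared by probes irrespective of gene. All 3 probes whose file entry is an AK cDNA record (1 each of Igf1, Igf1r and Igfbp3) were below background on both arrays, against 2 of 13 designed on RefSeq mRNAs and 0 of 2 on other GenBank records. Over the whole array 4863 of 9729 probes on AK records and 4923 of 25226 on RefSeq mRNAs were below background on both arrays. This was noticed after the values were seen. Along the transcript, the 5′ probe gave a lower difference than the 3′ probe by 1.44 for Igfbp4 and 1.76 for Igfbp5, and a higher one by 1.11 for Igf1r and 0.25 for Igfbp3. Over 4657 genes with measured probes at least 500 bases apart, the 5′ probe's difference minus the 3′ probe's had a median of -0.28 and quartiles of -0.69 and 0.14. Of those genes 4.79% were as low as Igfbp4 and 2.30% as low as Igfbp5, while 96.3% were at or below Igf1r, which lies at the opposite end. The part of this shift with position in the values of these genes was not tested.

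**Figure D4:**
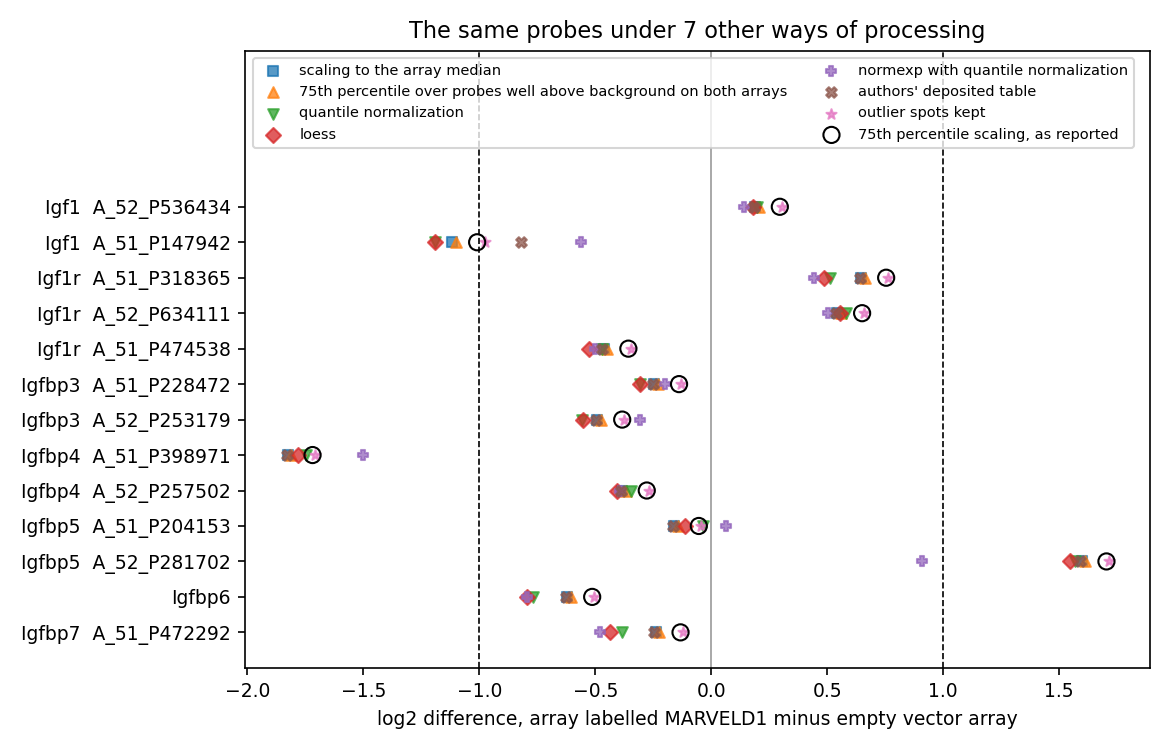
Log2 difference of the same 13 probes as reported (open circles) and under 7 other ways of processing, with dashed lines at 2-fold. The Igfbp4 probe A_51_P398971 stays past 2-fold under all 7, while Igf1 A_51_P147942 falls short in 3 and Igfbp5 A_52_P281702 in 1.

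The remaining ligands, receptors and binding proteins of the family showed no 2-fold difference by the brightest probe of each gene, the measure used for all groups that follow. Of 12 listed genes 9 were above background, and their median was 0.11. The list and this median include Igf2bp1, Igf2bp2 and Igf2bp3, at 0.56, 0.47 and 0.10. Their products bind RNA and are not carriers of IGFs. By single probes 1 of 14 passed, a dimmer probe of Igfbpl1, a gene related to the binding proteins, at 43.8 and 83.4 or 1.06, while its brighter probe gave 0.11. Igf2, the second IGF ligand, was below background at 26.5 and 25.3 by its brighter probe. Igf2r, the receptor that clears IGF2, read 13091 and 12019, a log2 difference of 0.00, or -0.28 with quantile normalization. Insr, the insulin receptor gene, read 155 and 130, or -0.13. Igfals, the subunit of the serum IGF complex, read 146 and 170, or 0.35. The measured probes of Igf2r and Insr stayed under 2-fold in every alternative run.

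Proteases that cut the binding proteins, and their inhibitors, had a lower median than the other groups. Of 11 genes 10 were above background, 6 lay below 0 and the median was -0.34. Pappa, which encodes the protease of IGFBP4 and IGFBP5, read 98.5 and 38.3 and was at least 2.36-fold lower by a bound of -1.24, while its other probe was below background at 7.52 and 10.7. Plau, the urokinase gene, read 71.7 and 135, or 2.06-fold higher, and 0.82 by its other probe. The Plau call at 1.04 was lost in 7 of 8 alternatives, for example at 0.94 with scaling to the array median, and the lowest value was 0.51 with normexp. The Pappa bound fell short of 2-fold with normexp, at -0.64. With the background filter on both arrays Pappa is not counted, since it was below background on the array labelled MARVELD1. The authors' deposited table gave no value for it here. By single probes of the proteases and inhibitors, 1 of 16 was higher and 3 were lower, against 5.88% and 4.62% of all probes. The lower ones were the Pappa probe and dimmer probes of Ctsd, at -1.47, and Plat, at -1.20. The brightest probes of Ctsd and Plat gave -0.38 and -0.65.

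Across all groups 5 of 67 genes, or 7.46%, passed 2-fold by the brightest probe, near the 8.92% of all genes. By single probes 7 of 129 were higher and 10 lower, or 13.2% against 10.5% of all probes. In the growth hormone arm 1 of 7 genes was higher: Socs3, a feedback inhibitor of cytokine receptors, read 7443 and 14819, or 2.17-fold higher by its single probe. Socs3 fell short of 2-fold with quantile normalization (0.86), loess (0.84) and normexp (0.85). Ghr, the growth hormone receptor gene, read 7676 and 3854, and all 5 of its probes were lower, from -1.16 to -0.56. Of 9 adaptor genes above background 0 passed 2-fold, with Shc1 at -0.94 and Grb2 at 0.76. Dimmer adaptor probes did pass, of Grb10 at a bound of -1.94 and of Irs4 at a bound of 1.69, where the brightest probes gave 0.07 and -0.11. In the MAPK arm 0 of 9 genes passed, with a median of 0.27. Braf, a kinase of that arm, was at 0.63 by its brightest probe, and all 5 of its measured probes lay above 0, up to 1.33 for a probe that read 213 and 492.

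The PI3K and AKT arm had a median of 0.14. Of its 23 genes 2, or 8.70%, were past 2-fold, both lower, near the 8.92% of all genes. By single probes 2 of 46 were higher and 5 lower, or 15.2% against 10.5% of all probes. Pik3r1, the p85-alpha regulatory subunit of PI3K, read 276 and 93.2 and was 2.71-fold lower, with other probes at -1.33, a bound of -1.17 and -0.17. Rictor, a core component of mTORC2, read 286 and 64.3 by its brightest probe, 4.08-fold lower. Its other probes gave 0.04, 0.70 and a bound of 1.67, so Rictor has no single direction. The brightest Akt1 probe gave 0.53, and the dimmer one a bound of -1.76. For Eif4ebp1 the brightest probe gave 0.14, and the dimmer one a bound of 1.27. Of the 67 pathway genes 2 were higher and 3 lower past 2-fold, with a median of 0.09 against 0.19 over all genes. The split was 0 and 5 with quantile normalization and 0 and 6 with loess. Over all genes it was 891 higher and 584 lower as reported, and 653 and 723 with scaling to the array median.

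**Figure D5:**
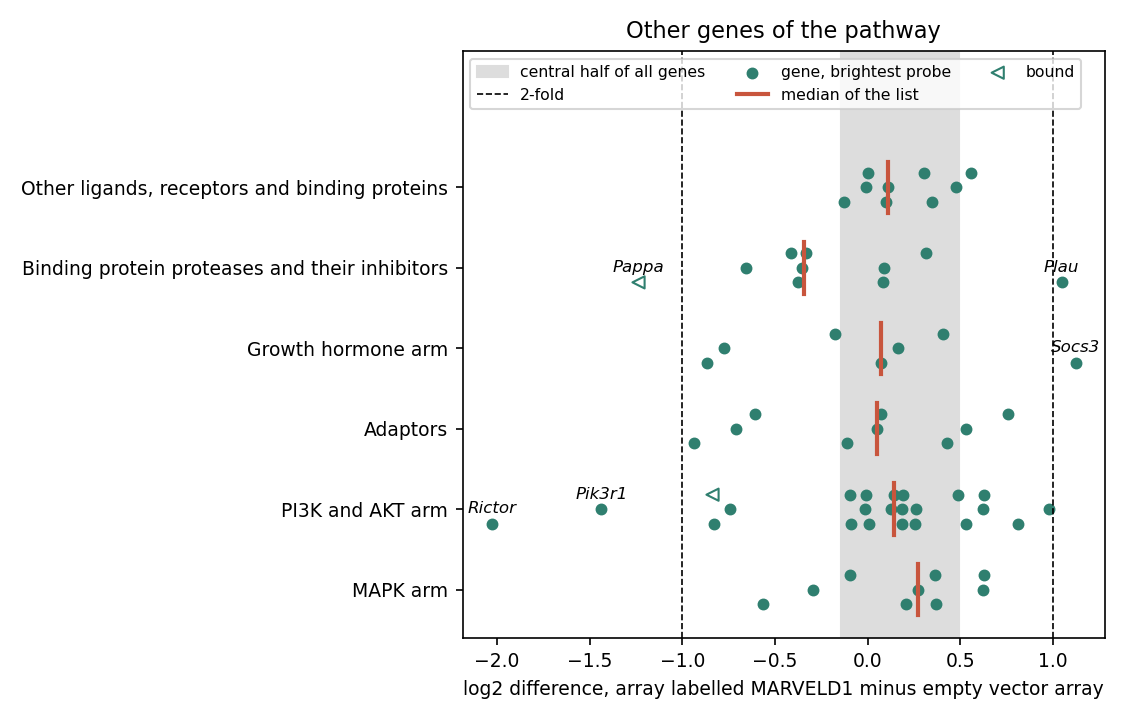
Log2 difference of 67 other genes of the pathway by the brightest probe of each, in 6 groups, with red bars at the group medians and the grey band at the quartiles of all genes. Pappa, Pik3r1 and Rictor lie past 2-fold lower, Plau and Socs3 past 2-fold higher under the scaling as reported, and the proteases have the lowest group median, -0.34.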

How the data were processed

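Intensity was deposited by the authors as 1 Agilent Feature Extraction 9.5.3.1 file per array (mouse build mm9, per the file headers), background-subtracted and detrended within the array and not scaled between arrays. A second deposited file holds the authors' normalized intensity of 26851 probes. Its columns are within 1% of the processed intensity over 124.6 and 123.3 for 99.7% and 99.8% of probes. How it was made is otherwise not given in the sources used here. Outlier spots were left out, log2 intensity minus the array's 75th percentile was averaged across each probe's spots, and a probe counted as above background when most of its spots were flagged well above it. A probe above background on 1 array has a bound, set against the higher of the dim value and the lowest well-measured value. Genes were named through a RefSeq table (GRCm38.p6, names only) and represented by their brightest probe. Members, lists and the rule for named genes (all members, 6 relatives, pathway genes past 2-fold) were chosen with earlier results of these data known. Ghr, Shc1, Grb2, Grb10, Irs4, Braf, Igfbpl1, Akt1, Ctsd, Plat, Eif4ebp1, Igf2bp1, Igf2bp2 and Igf2bp3 were named after their values were seen. Alternatives used limma 3.58.1 in R 4.3.3 and Python 3.11.15. The steps were tested on simulated data. Known changes were placed only in bright probes there, so bounds and changes of dim probes were not tested. The sequence and position of the Igfbp6 probe are not reported here.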

Additional observations from a re-analysis of the deposited data

How the results depend on the processing

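The signs of 12 of the 13 probe differences held under 7 other ways of processing; Igfbp5 A_51_P204153 turned from -0.05 to 0.06 with normexp. Counts of the 13 probes past 2-fold went from 1 higher and 2 lower to 0 and 1 with normexp, and to 1 lower with the authors' deposited table, with outlier spots kept (an alternative added after seeing the data), with the background filter on both arrays and at a 3-fold limit. At 1.5-fold 3 were higher. By gene, taking the most 3-prime probe instead of the brightest turned Igf1 to -1.01, Igf1r to -0.36 and Igfbp5 to 1.70. The mean of all probes gave -0.36 for Igf1, 0.35 for Igf1r and 0.83 for Igfbp5. It took Igfbp4 from -0.28 to -0.998, just short of 2-fold, and reversed Rictor from -2.03 to 0.097. Pathway genes higher fell from 2 to 1 with median scaling, the 75th percentile over probes measured on both arrays, the authors' table and the mean of probes, and to 0 with quantile normalization, loess, normexp and a 3-fold limit. Pathway genes lower were 5 with quantile normalization, 6 with loess, 12 at 1.5-fold (with 9 higher) and 1 at 3-fold. The pathway median was -0.017 with median scaling and in the authors' table, -0.016 with quantile normalization and -0.080 with loess. The median of all genes was 0.082 with median scaling, 0.077 with quantile normalization, 0.037 with loess, 0.054 with normexp and 0.072 in the authors' table. All genes past the limit, higher and lower, were 307 and 421 with normexp and 479 and 617 in the authors' table. They were 666 and 704 with quantile normalization, 606 and 759 with loess and 200 and 216 at 3-fold. More were higher at 1.5-fold (3210 and 1482), with the filter on both arrays (691 and 480), without a filter (1203 and 676) and by the mean of probes (783 and 552). Pik3r1 fell short of 2-fold with normexp, at -0.93. The normexp offset of 50 by construction shrinks differences of dim probes. Beyond that, the cause of these shifts was not tested. No paired analysis was possible because each group has 1 array. Signal near background limits Igf1 A_51_P147942, Igfbp2, Igfbp3 and the 3′ Igfbp5 probe, where repeated spots under an intensity of 100 had a log2 SD of 0.52 and 0.40.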
